A study of Mus musculus with 8 samples.

Results

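Serpins are a superfamily of proteins that mostly inhibit serine proteases. The genes described here are the mouse serpin genes of clades A to I, chosen by name alone: every non-control probe of the arrays whose deposited gene name is Serpin followed by a clade letter and a number. This gave 75 probes of 59 genes among 55681 probes. Of the 59 genes, 40 (51 probes) had, in 1 group or more, both arrays well above background, and were tested among 20734 genes; the other 19 were not tested. Clade A, the large secreted clade, held 22 genes with 16 tested, and clade B, the mostly intracellular clade, held 26 genes with 16 tested. Clades C to I held 11 genes in all, of which 8 were tested, among them Serpinc1, Serpine2, Serpinf1, Serpinf2, Serping1, Serpinh1 and Serpini1. Another 5 probes of serpins carry other names in the files and lie outside the rule.

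The study set pups with a gene-targeted deletion of claudin-7, an epithelial junction protein, against wild-type pups, all of the 129SV strain and 3 days old. Total RNA of intestinal fragments was hybridised to single-colour (Cy3) arrays, in 4 groups of 2 arrays numbered 2 and 3: claudin-7 knockout (KO) small intestine, wild-type (WT) small intestine, KO large intestine and WT large intestine. No group was treated. The labels do not say in which cells or at which stage the deletion acted, nor which samples came from the same pup, so that p-values measure the spread between these arrays.

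A serpin presents an exposed reactive loop as bait; the protease cleaves it, and the serpin changes shape and traps the enzyme in a covalent complex. Some members have other jobs: they carry hormones in plasma, chaperone collagen, or inhibit cysteine proteases. In the gut, serpins meet the proteases of neutrophils, mast cells and lymphocytes, of the plasminogen system, of clotting and of complement. Plasma serpins are made mainly by the liver.

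Levels below are log2 of a probe's signal over the 75th percentile of its array, so that 0 is that percentile; they may be compared between arrays for 1 probe and not between probes. Fold changes are log2 differences, KO minus WT, each given ± its standard error (n = 2 arrays in every group). Passing means an adjusted p below 0.05 in limma, adjusted by the Benjamini-Hochberg method over all genes tested. Arrays that do not overlap between genotypes, as described for some genes below, are no test with 2 arrays per group. Serpins that did not pass, such as Serpina1a in the small intestine, showed this too. Positions are those of the array design on build mm9.

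The targeted gene followed the labels: Cldn7 read 2.21 and 0.94 in KO small intestine against 5.89 and 5.93 in WT small intestine, and 2.08 and 2.16 in KO large intestine against 5.70 and 5.56 in WT large intestine. Of 12 gut epithelium markers, Cldn7 among them, all were well above background on all 8 arrays; 1 rose and 3 fell in the KO small intestine (median -0.33, 3 above 0) and 1 rose and 1 fell in the KO large intestine (median 0.36). Their summed signal was 684 and 517 in KO against 632 and 691 in WT small intestine, and 722 and 836 in KO against 657 and 647 in WT large intestine, and their part in the serpin values was not tested. KO large intestine replicate 2 stood apart through liver transcripts: the summed linear signal of 14 hepatocyte genes was 199.6 there (in units of the array's 75th percentile) and 2.70 to 23.2 on the other 7 arrays, and Alb, encoding albumin, read 5.23 there against -8.38 to -4.53 elsewhere. Xist, the RNA of the silenced X, was at -2.42 and -2.43 on the KO replicate 3 arrays and between -7.46 and -6.25 on the other 6. Y-linked Ddx3y read -8.47 and -9.0 on the KO replicate 3 arrays, against 0.7 to 1.33 on the other 6. Y-linked Eif2s3y read -5.57 and -6.57 there, against 2.68 to 3.22. By these genes the KO replicate 3 arrays were female and the other 6 male. Each KO group thus mixed the sexes and each WT group did not, and the part of sex in the serpin values was not tested. The arrays lay on 1 slide, each group in 1 slide column, so that column and group cannot be told apart.

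In the small intestine 10 serpin genes were higher and 2 lower in the KO, 12 of 40 tested, against 9.49% of all genes tested (6.04% higher and 3.45% lower). The 10 higher genes were Serpinb6b, Serpine2, Serpina3h, Serpina3f, Serpinf1, Serpini1, Serpinb5, Serping1, Serpinb1c and Serpinh1, and the 2 lower genes were Serpina1f and Serpina10. The median log2 fold change of the 40 was 0.11, beside -0.11 for all genes. In the large intestine Serpina3f was higher and Serpina9 lower, 2 of 40 against 0.304% of all genes (0.154% higher and 0.15% lower), with medians of 0.41 and 0.00. Over both segments the fit had segment as an additive term and 4 arrays per genotype. In it Serpina3h and Serpina3f were higher and no serpin gene was lower, against 0.487% of all genes (0.294% higher and 0.193% lower). The medians were 0.34 and -0.02. These shares of all genes also stand beside every count of listed marker and partner genes in the same comparison, above and below.

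These counts rested on few arrays. Without KO small intestine replicate 3, or without WT small intestine replicate 3, no serpin gene passed in the small intestine in limma (20 and 18 at an unadjusted p under 0.05), and the share of all genes called was then 0.362% and 0.395%. It was 1 gene without either WT large intestine array and 5 without either KO large intestine array, which enter only through the shared estimate of spread. In the large intestine no serpin gene passed without WT replicate 2 or 3 or without KO replicate 2 (8, 8 and 11 at an unadjusted p under 0.05), 1 passed without either WT small intestine array, and 4 passed without KO large intestine replicate 3. Over both segments the count was 0 without WT small intestine replicate 2, KO small intestine replicate 3 or any 1 of the 4 large intestine arrays (11 to 17 at an unadjusted p under 0.05). Fold changes were followed for each serpin gene in the comparisons it passed, and for the 3 largest that did not pass per knockout comparison. None of these changed direction, and other fold changes of the named genes were not followed here.

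**Figure D1:**
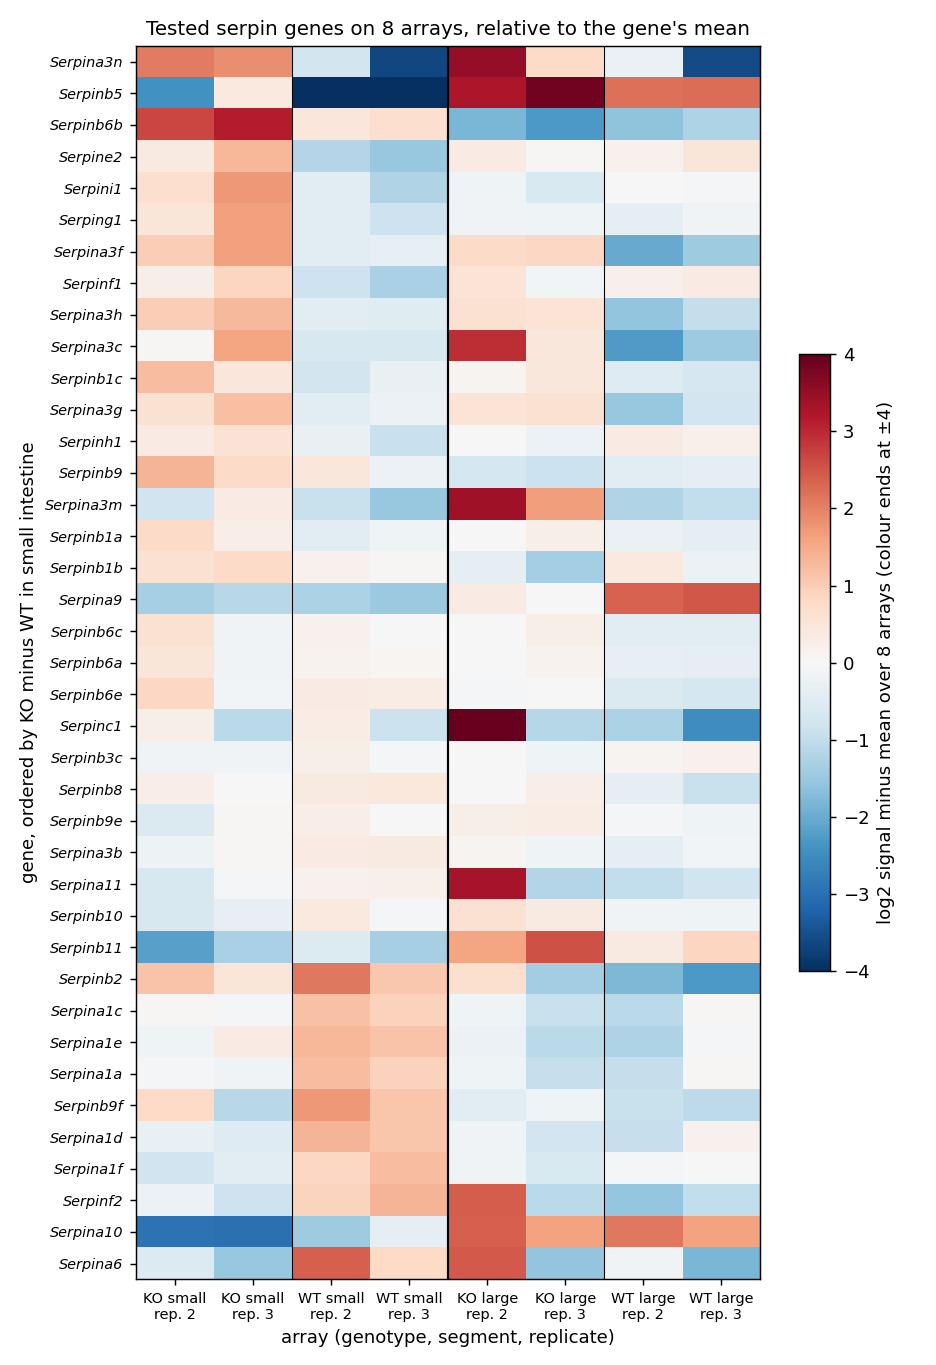
Each row is a tested serpin gene and each column 1 array; colour is the log2 signal minus the gene's mean over the 8 arrays, with the colour scale ending at 4 in each direction, and rows run in the order of the fitted KO minus WT difference in small intestine, which for Serpina3c, Serpina6, Serpinb9e and Serpinb11 rests on at least 1 group not well above background. KO large intestine replicate 2 is the highest array for Serpinc1, Serpina11 and Serpina3m.

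The Serpina3 genes are the mouse copies of human antichymotrypsin, which inhibits the granule protease cathepsin G; they lie side by side on chromosome 12. Of 7 tested, 2 rose in the KO small intestine and 1 in the KO large intestine, beside 6.04% and 0.154% of all genes. The median log2 fold changes were 1.45 and 2.52. They were 1.25 and 2.10 with the genes not well above background in WT set at their bounds (defined below). Serpina3f (probe at chromosome 12, 105458989 to 105459048) read -2.14 and -1.48 in KO small intestine against -3.55 and -3.44 in WT small intestine. In large intestine it read -2.35 and -2.29 in the KO against -5.12 and -4.55 in WT. In both segments the KO arrays lay above the WT arrays, and the gene rose by 1.68 ± 0.30 in the small intestine (3.21-fold, adjusted p = 0.0321), by 2.52 ± 0.30 in the large intestine (5.73-fold, adjusted p = 0.0377) and by 2.10 ± 0.26 over both (4.29-fold, adjusted p = 0.031). Serpina3f alone among the 40 passed in both segments.

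Serpina3h (105492556 to 105492615) read -1.31 and -0.98 in KO small intestine against -2.72 and -2.76 in WT, and -1.67 and -1.72 in KO large intestine against -3.86 and -3.22 in WT. On this probe the 4 KO arrays lay above the 4 WT arrays. It rose by 1.59 ± 0.26 in the small intestine (3.02-fold, adjusted p = 0.0286) and by 1.72 ± 0.19 over both segments (3.29-fold, adjusted p = 0.0221); the large intestine difference, 1.84 ± 0.26, did not pass (adjusted p = 0.0642). A second Serpina3h probe gave smaller differences, 0.56 ± 0.32 in the small and 0.62 ± 0.32 in the large intestine. With it the genotypes overlapped in the small intestine, where KO replicate 2 read -3.00 and WT replicate 3 read -2.92. Serpina3g, which in mouse leukocytes inhibits lysosomal cysteine proteases, read 2.84 and 3.42 in KO small intestine against 1.78 and 1.98 in WT, and 2.76 and 2.83 in KO large intestine against 0.72 and 1.44 in WT. Its KO arrays too lay above every WT array, and it missed the threshold in the small intestine (1.25 ± 0.31, adjusted p = 0.0527), the large intestine (1.72 ± 0.31, adjusted p = 0.116) and over both (1.49 ± 0.23, adjusted p = 0.0508).

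Serpina3n, an acute-phase gene and in mouse an inhibitor of granzyme B and leukocyte elastase, had a wide gap between genotypes and a wide spread within them. It read -0.24 and -0.47 in KO small intestine against -3.05 and -5.97 in WT, and 1.18 and -1.56 in KO large intestine against -2.60 and -5.91 in WT. The WT arrays numbered 3 were the lowest in both segments, and all 4 KO arrays lay above all 4 WT arrays. The differences did not pass: 4.16 ± 1.43 in the small intestine (adjusted p = 0.103), 4.07 ± 1.43 in the large intestine (adjusted p = 0.319) and 4.11 ± 0.96 over both (adjusted p = 0.111). Without KO large intestine replicate 2 the large intestine value was 2.70 (adjusted p = 0.461).

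Serpina3m and Serpina3c were near background in places. Serpina3m read -2.87 and -4.59 in KO large intestine, and neither WT large intestine array (-7.44 and -7.22) was well above background, so that it was at least 11.4-fold higher in the KO there (adjusted p = 0.104, not passed). A bound of this kind takes the bright group's mean against, on each dim array, the higher of the probe's own signal and the lowest signal among probes well above background. Serpina3c was well above background on the 4 KO arrays (-6.83 and -5.29 in small, -3.91 and -6.40 in large intestine) and on no WT array (-7.50 and -7.51 in small, -9.14 and -8.33 in large intestine); it was at least 2.95-fold higher over both segments (adjusted p = 0.152, not passed). Serpina3b went the other way in the small intestine, at -3.38 and -3.12 in the KO against -2.84 and -2.82 in WT. That difference, -0.42 ± 0.21, did not pass (adjusted p = 0.224). In large intestine Serpina3b read -3.08 and -3.36 in the KO against -3.55 and -3.29 in WT, and the genotypes overlapped. The largest Serpina3m and Serpina3c values came from KO large intestine replicate 2, the array with liver transcripts, whose part in them was not tested.

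A promoter stretch of 4 of these neighbours, all with higher means in the KO, is shown (RefSeq, assembly GRCm38.p6, 5′ to 3′ along the gene's strand). Capitals mark a 13-base run that all 4 hold and, in Serpina3f and Serpina3g, a match to TTCNNNGAA, the palindrome bound by STAT transcription factors.
Serpina3c, chr12:104153931-104154041, minus strand: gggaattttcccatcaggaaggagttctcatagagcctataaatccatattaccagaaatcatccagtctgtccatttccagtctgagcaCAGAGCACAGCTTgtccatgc
Serpina3f, chr12:104214365-104214475, plus strand: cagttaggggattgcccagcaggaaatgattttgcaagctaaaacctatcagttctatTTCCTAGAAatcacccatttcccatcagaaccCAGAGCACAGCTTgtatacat
Serpina3g, chr12:104236065-104236175, plus strand: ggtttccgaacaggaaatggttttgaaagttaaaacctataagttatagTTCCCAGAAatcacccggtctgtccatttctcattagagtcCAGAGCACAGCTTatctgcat
Serpina3n, chr12:104406536-104406646, plus strand: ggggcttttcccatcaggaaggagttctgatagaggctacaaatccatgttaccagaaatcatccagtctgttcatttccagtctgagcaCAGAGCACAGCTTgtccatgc
The 13-base run occurs in 7 of 32851 promoters of 300 bases, those of Serpina3c, Serpina3f, Serpina3g, Serpina3i, Serpina3n and Olfr374. TTCNNNGAA reads the same on both strands and occurs in 8.3% of all promoters and in 10 of 56 serpin promoters (17.9%); the Serpina3f and Serpina3g stretches each hold 1 match, and those of Serpina3c and Serpina3n hold none. A match is a matter of letters only, and no binding was measured.

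Many markers of neutrophils and macrophages were also higher in the KO. Their summed signals overlapped between genotypes in the small intestine, where each sum rested mostly on 1 gene. For neutrophils this was Csf3r, at 4.16 and 4.23 in KO against 4.58 and 4.07 in WT small intestine. For macrophages it was Csf1r, at 6.60 and 5.77 in KO against 6.32 and 6.12 in WT small intestine. Of 11 neutrophil genes, 3 rose in the KO small intestine and 1 in the KO large intestine, with none lower in either (medians 1.56 and 2.42); 9 and 10 of the 11 lay above 0. Their summed signal was 27.0 and 30.1 in KO small intestine against 27.8 and 19.7 in WT, and 52.8 and 49.0 in KO large intestine against 29.2 and 29.2 in WT. S100a9, a calcium-binding protein of neutrophils, read 1.85 and 2.60 in KO small intestine against 0.08 and -0.23 in WT. In large intestine it read 3.85 and 3.04 in the KO against 1.56 and -0.31 in WT. Csf3r, of the same list, was lower in KO large intestine, at 4.08 and 3.93 against 4.56 and 4.72 in WT. Camp was high on KO large intestine replicate 2 (1.71) and not on replicate 3 (-1.44), with -1.05 and -1.60 in WT. Of 9 macrophage genes, 6 rose in the KO small intestine and none in the KO large intestine (summed signal 119 and 82.5 in KO against 92.8 and 81.4 in WT small intestine, and 32.8 and 34.7 in KO against 25.6 and 25.9 in WT large intestine). The part of these cells in the Serpina3 values was not tested, and in tissue RNA fewer cells of a type and less RNA per cell cannot be told apart.

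**Figure D2:**
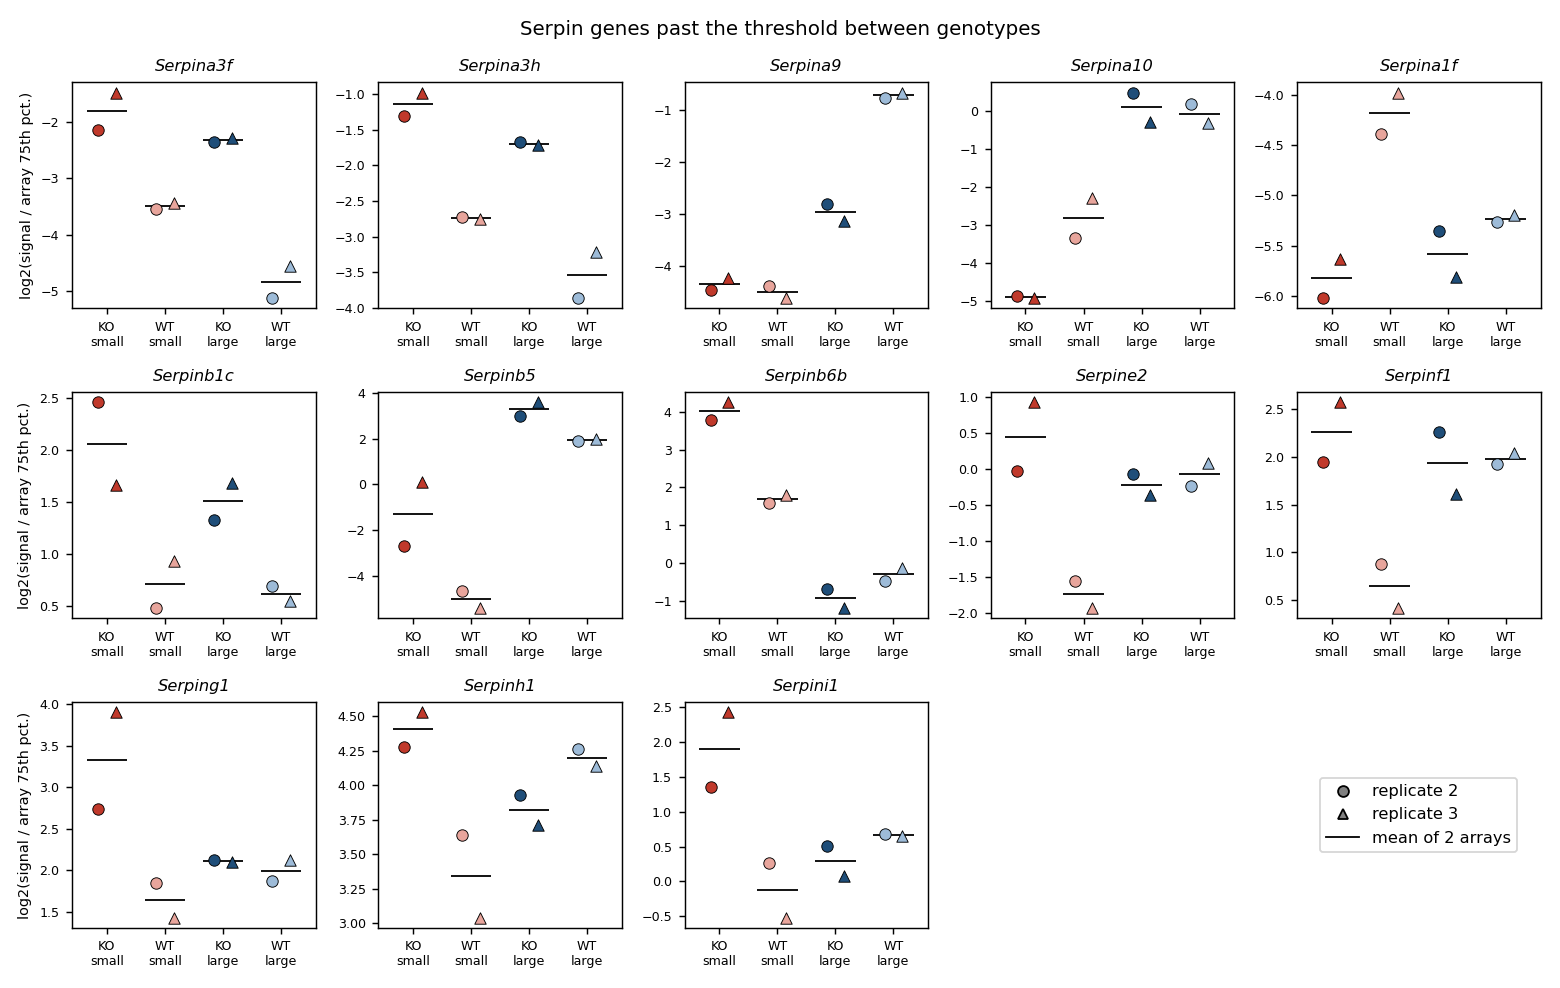
Each panel is 1 serpin gene that passed between genotypes in at least 1 comparison; the axis is log2 signal over the array's 75th percentile, circles are replicate 2, triangles replicate 3, and lines the mean of 2 arrays, with KO left of WT in each segment. In the Serpina3f and Serpina3h panels the KO arrays lie above WT in both segments, and in the Serpina9 panel the groups separate in large intestine, where KO read -2.80 and -3.13 and WT -0.76 and -0.66.

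Serpina1 genes encode alpha-1-antitrypsin, the plasma inhibitor of neutrophil elastase, of which mice carry several near-identical copies. All 4 tested copies were lower in the KO small intestine, and none passed (-1.62 to -1.04, median -1.16); in the large intestine they read -0.10 to -0.01. Serpina1a read 5.22 and 5.12 in KO small intestine against 6.48 and 6.19 in WT (-1.17 ± 0.39, adjusted p = 0.0954). Serpina1d read 2.38 and 2.15 in KO small intestine against 4.02 and 3.76 in WT (-1.62 ± 0.40, adjusted p = 0.0523). In both, the KO and WT small intestine arrays did not overlap. Second probes of Serpina1a, Serpina1d and Serpina1e gave -2.21, -1.54 and -2.23 in the small intestine.

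The copies cannot be fully separated. The Serpina1c and Serpina1a probes share 50 of 51 overlapping bases (98.0%), so that RNA of either copy may bind both probes. A window of 30 aligned bases is shown to make the overlap visible (array design, mm9, 5′ to 3′; the capital marks the difference, G4A, with Serpina1c's base first and positions counted from 1 at the 5′ end).
Serpina1c, chr12:105133186-105133215, minus strand: taagatgtcatccttccttctgaattgggt
Serpina1a, chr12:105091849-105091878, minus strand: taaAatgtcatccttccttctgaattgggt
The promoters are alike as well, at 109 to 115 of 119 bases between pairs of Serpina1a, Serpina1c, Serpina1d and Serpina1e. Stretches of 3 of them follow (RefSeq, GRCm38.p6), with the 59-base run that the copies share in capitals.
Serpina1a, chr12:103863591-103863709, minus strand: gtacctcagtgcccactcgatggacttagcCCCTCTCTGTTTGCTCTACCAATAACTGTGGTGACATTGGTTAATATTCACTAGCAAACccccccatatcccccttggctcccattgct
Serpina1c, chr12:103904928-103905046, minus strand: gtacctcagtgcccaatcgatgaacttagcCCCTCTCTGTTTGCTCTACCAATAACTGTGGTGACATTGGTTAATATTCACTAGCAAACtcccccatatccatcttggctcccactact
Serpina1e, chr12:103956926-103957044, minus strand: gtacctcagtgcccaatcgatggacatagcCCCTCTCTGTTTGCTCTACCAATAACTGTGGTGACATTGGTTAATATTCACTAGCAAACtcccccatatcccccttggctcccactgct
The run occurs in 5 of 32851 promoters, those of Serpina1a to Serpina1e. It contains GTTAAT, a half-site of the liver and gut factor HNF1, which occurs on either strand in 7.1% of all promoters. The half-site occurs in 11 of 56 serpin promoters (19.6%). These include the promoters of Serpina1a, Serpina1c, Serpina1d and Serpina1e, so that copies of the same run are counted separately.

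Serpina1f and Serpina10 fell in the KO small intestine and Serpina9 in the KO large intestine. Serpina1f, a divergent copy best known from the epididymis, read -6.02 and -5.63 in KO small intestine against -4.39 and -3.98 in WT, and fell by 1.64 ± 0.26 (adjusted p = 0.0281); in large intestine it read -5.36 and -5.81 in the KO against -5.27 and -5.20 in WT. Serpina10, the protein Z-dependent inhibitor of clotting factor Xa, read -4.87 and -4.91 in KO small intestine against -3.33 and -2.30 in WT, and fell by 2.07 ± 0.42 (adjusted p = 0.0383). A second Serpina10 probe was well above background on both WT small intestine arrays (-6.83 and -5.85) and on neither KO one (-8.30 and -8.57). In large intestine Serpina10 read 0.48 and -0.30 in the KO against 0.18 and -0.32 in WT, and the genotypes overlapped. Serpina9, known in humans from germinal centre B cells, fell by 2.26 ± 0.21 in the KO large intestine (4.79-fold, adjusted p = 0.024); its small intestine values, -4.46 and -4.23 in the KO and -4.40 and -4.62 in WT, overlapped.

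Serpina6, the corticosteroid carrier of plasma, was well above background on both WT small intestine arrays (-4.15 and -5.74) and on neither KO small intestine array (-7.08 and -8.06). It was at least 4.08-fold lower in the KO there, and the difference did not pass (adjusted p = 0.223). In large intestine it read -4.08 and -8.12 in the KO against -6.69 and -8.36 in WT, again highest on KO replicate 2. Of 14 hepatocyte markers measured, 3 lay above 0 in the KO small intestine comparison (median -0.97), 1 passed as lower and none as higher. Their summed signal was 5.35 and 3.63 in the KO against 17.3 and 23.2 in WT. The WT sums rested mostly on 1 gene, Cps1, which read 1.41 and 0.77 in the KO against 3.68 and 4.15 in WT. Alb read -7.16 and -8.38 in the KO against -6.28 and -5.95 in WT. On KO large intestine replicate 2, the array with liver transcripts, Alb read 5.23 and Cps1 only -1.49, so that Cps1 did not follow Alb between these arrays. The part of these markers in the lower Serpina1, Serpina1f, Serpina10 and Serpina6 values was not tested. Serpina11, with no settled function, read 0.78 on KO large intestine replicate 2 and -3.69 to -2.31 on the other 7 arrays.

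Clade B serpins stay mostly inside the cell and guard it against its own or a neighbour's granule proteases. Of 16 tested, 3 rose in the KO small intestine and none fell, beside 6.04% and 3.45% of all genes, with a median of 0.06. In the large intestine none passed, beside 0.304% of all genes, with a median of 0.57. Serpinb6b, a relative of the cathepsin G inhibitor SERPINB6 of humans, had the smallest adjusted p of the 40 in the small intestine: it read 3.79 and 4.25 in the KO against 1.58 and 1.80 in WT, a rise of 2.33 ± 0.27 (5.04-fold, adjusted p = 0.0158; chromosome 13, 33070776 to 33070835). In large intestine it read -0.70 and -1.19 in the KO against -0.49 and -0.13 in WT, all lower than in either small intestine group. Its relatives Serpinb6a and Serpinb6c, whose probes share 55 of 59 bases and so are hard to separate, had small intestine differences of 0.06 and 0.15.

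Serpinb5 (maspin), a clade B member of epithelia that does not inhibit proteases, spanned the widest range of the tested serpins, 8.98 over the 8 arrays. It read -2.69 and 0.12 in KO small intestine against -4.67 and -5.40 in WT, and rose by 3.75 ± 0.83 (13.5-fold, adjusted p = 0.0433). In large intestine it read 2.97 and 3.58 in the KO against 1.91 and 1.96 in WT, a difference of 1.34 that did not pass, and over both segments the difference was 2.55 (adjusted p = 0.155). The KO arrays lay above the WT arrays of the same segment, and every small intestine array lay below every large intestine array. Squamous epithelium markers had 0 of 6 measured genes past the threshold in either segment, and their summed signal was 4.14 and 4.20 in KO against 4.65 and 4.43 in WT small intestine, and 9.36 and 8.45 in KO against 6.29 and 5.65 in WT large intestine.

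Serpinb1 genes encode inhibitors of neutrophil elastase, cathepsin G and proteinase 3. Serpinb1c read 2.46 and 1.66 in KO small intestine against 0.48 and 0.93 in WT, and rose by 1.36 ± 0.32 (2.57-fold, adjusted p = 0.048); in large intestine it read 1.33 and 1.68 in the KO against 0.69 and 0.54 in WT. Serpinb1a moved less and did not pass: 6.67 and 6.15 in KO small intestine against 5.45 and 5.72 in WT (0.83 ± 0.24, adjusted p = 0.0719). Serpinb9, the granzyme B inhibitor, read 0.43 and -0.19 in KO small intestine against -0.50 and -1.18 in WT (0.96 ± 0.30, adjusted p = 0.0852), and -1.65 and -1.79 in KO large intestine against -1.36 and -1.29 in WT. Its target Gzmb fell in the KO small intestine by 1.10 ± 0.23 (adjusted p = 0.0398) and rose in the KO large intestine by 1.85 ± 0.23 (adjusted p = 0.0415), and the effects differed by 2.95 ± 0.32 (adjusted p = 0.0431). Of 12 T and NK cell markers, Gzmb among them, 9 fell in the KO small intestine.

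The other tested clade B genes did not pass between genotypes. Serpinb8, which in humans inhibits furin, read 4.68 and 4.43 in KO small intestine against 4.79 and 4.84 in WT, and 4.43 and 4.70 in KO large intestine against 4.03 and 3.53 in WT; the KO arrays lay below WT in the small intestine and above it in the large intestine (difference of the effects 1.05, adjusted p = 0.127). Serpinb11, well above background in large intestine only, read -5.67 and -4.69 there in the KO against -6.88 and -6.37 in WT (1.45). Serpinb10 lay lower in the KO small intestine (-6.70 and -6.37 in the KO against -5.66 and -6.11 in WT) and higher in the KO large intestine (-5.44 and -5.69 in the KO against -6.20 and -6.22 in WT), with a difference of the effects of 1.29 (adjusted p = 0.101). Serpinb3c, of the squamous cell carcinoma antigen group, was the steadiest, between -4.72 and -4.32 on all 8 arrays. Serpinb6a stayed between 6.02 and 6.84, Serpinb6e between -1.95 and -0.40, Serpinb1b between -7.98 and -5.88 and Serpinb9e between -7.63 and -6.74.

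Of 16 granule serine proteases of leukocytes, which clade B serpins face, none rose and 2, Gzma and Gzmb, fell in the KO small intestine (log2 fold changes from -2.45 to 2.71, beside 9.49% of all genes called), and 1, Gzmb, rose in the KO large intestine (beside 0.304%). Of 14 lysosomal cathepsins, Ctsk, the collagen-degrading cathepsin, rose (1.59 ± 0.31, adjusted p = 0.0368) and Ctsw, of cytotoxic lymphocytes, fell (-1.24 ± 0.29, adjusted p = 0.0479) in the KO small intestine, and none passed in the large intestine.

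Serpins of the plasminogen system and the matrix differed in the small intestine. Serpine2 (protease nexin-1), which blocks thrombin and the plasminogen activators, read -0.03 and 0.92 in KO small intestine against -1.56 and -1.93 in WT, and rose by 2.19 ± 0.35 (4.58-fold, adjusted p = 0.0281). Serpini1 (neuroserpin), a neuronal inhibitor of tissue plasminogen activator, read 1.36 and 2.43 in KO small intestine against 0.27 and -0.52 in WT, and rose by 2.02 ± 0.42 (4.05-fold, adjusted p = 0.0399). Neither gene's genotypes overlapped in the small intestine. In large intestine Serpine2 read -0.08 and -0.36 in the KO against -0.24 and 0.08 in WT, which overlapped, and Serpini1 read 0.51 and 0.08 in the KO against 0.68 and 0.65 in WT, which did not. Of 10 plasminogen genes, Plat, the tissue activator that Serpini1 inhibits, rose by 2.23 ± 0.40 (adjusted p = 0.0335) and Anxa2, a cell-surface receptor for it, by 0.86 ± 0.20 (adjusted p = 0.0478); none fell, and none passed in the large intestine.

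Serpinh1 (Hsp47), the collagen chaperone of the endoplasmic reticulum, read 4.28 and 4.53 in KO small intestine against 3.64 and 3.04 in WT, and rose by 1.07 ± 0.25 (2.10-fold, adjusted p = 0.0485). Serpinf1, the antiangiogenic and neurotrophic factor PEDF, read 1.95 and 2.57 in KO small intestine against 0.88 and 0.42 in WT, and rose by 1.61 ± 0.32 (3.04-fold, adjusted p = 0.0384), with 1.61 ± 0.34 from a second probe. Serping1, the inhibitor of complement C1, read 2.74 and 3.90 in KO small intestine against 1.85 and 1.43 in WT, and rose by 1.68 ± 0.38 (3.21-fold, adjusted p = 0.0453), with 1.62 ± 0.41 from a second probe. The large intestine differences of these 3 genes were -0.38, -0.05 and 0.11. Of 19 genes of collagen maturation, P4ha2 (1.51 ± 0.28), Lox (1.92 ± 0.36), Fkbp10 (1.38 ± 0.27) and Adamts2 (1.46 ± 0.34) rose in the KO small intestine and none fell; none passed in the large intestine.

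The markers of muscle, nerve and connective tissue moved with these 5 genes in the small intestine. Of 12 enteric neuron genes 8 rose, and their summed signal was 49.9 and 83.0 in the KO against 26.8 and 14.8 in WT; in large intestine none passed, with 39.2 and 31 in the KO against 43.5 and 46.8 in WT. Of 7 enteric glia genes 5 rose and 1 fell, with sums of 10.1 and 12.9 in the KO against 4.82 and 2.51 in WT. Smooth muscle genes were above 0 in 12 of 12 with 1 past the threshold (504 and 628 in the KO against 324 and 176 in WT), 3 of 8 fibroblast genes rose (482 and 495 in the KO against 302 and 242 in WT), and 4 of 6 mesothelium genes rose (17.5 and 24.7 in the KO against 7.99 and 4.87 in WT). On every one of these lists KO replicate 3 was the highest and WT replicate 3 the lowest small intestine array, as for Serpine2, Serpini1, Serpinh1, Serpinf1 and Serping1. Their part in the serpin values was not tested.

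Several serpins of plasma read far higher on KO large intestine replicate 2 than on any other array, and others did not: Serpina10 read 0.48 there and 0.18 on a WT large intestine array, Serpina6 read -4.08 there and -4.15 on a WT small intestine array, and Serpina1a read 5.08 there and 6.48 on a WT small intestine array. Serpinc1 (antithrombin), the main inhibitor of thrombin and factor Xa, read 3.32 there and -4.10 on the other KO large intestine array, against -4.25 and -5.45 in WT; the difference of 4.46 did not pass (adjusted p = 0.426) and was 0.75 without that array (adjusted p = 0.671). In small intestine it read -2.75 and -4.06 in the KO against -2.67 and -3.82 in WT. Serpinf2, the plasmin inhibitor alpha-2-antiplasmin, read 2.06 on the same array and -1.46 on the other KO large intestine array, against -1.92 and -1.36 in WT, and in small intestine -0.61 and -1.22 in the KO against 0.51 and 0.99 in WT (-1.67, adjusted p = 0.309). Serpind1 (heparin cofactor II), Serpina3k and Serpina7 (the thyroxine carrier) were not tested; they read 0.94, -1.99 and -3.12 on that array, and at most -6.08, -6.72 and -7.18 on the other 7. All 14 hepatocyte genes measured lay above 0 in the KO large intestine comparison, and none passed. Of 19 clotting genes, F13a1, the transglutaminase of fibrin, rose in the KO small intestine (3.32 ± 0.69, adjusted p = 0.0398), and none passed in the large intestine.

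**Figure D3:**
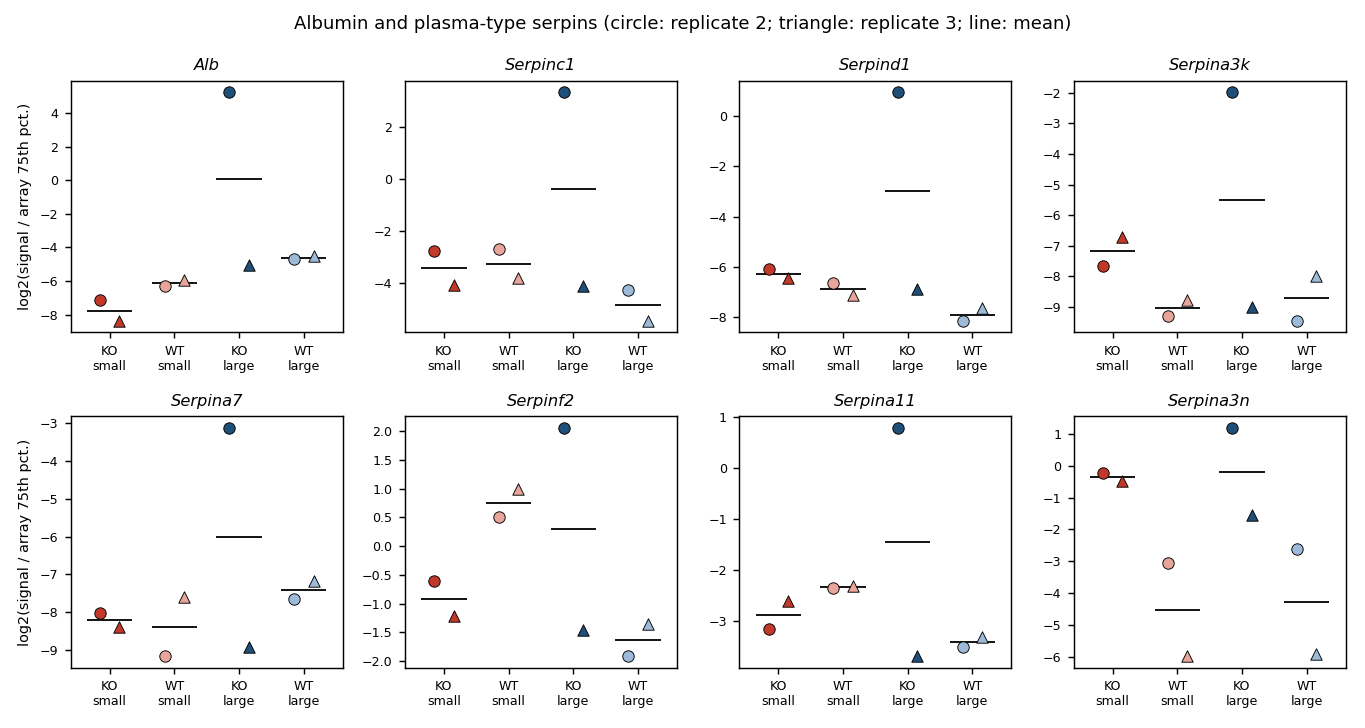
Panels show albumin (Alb) and 7 serpins of plasma type, chosen after their values were seen, on the 8 arrays, as log2 signal over the array's 75th percentile, with circles for replicate 2, triangles for replicate 3, lines for the mean, and KO left of WT. The circle of KO large intestine stands above all other points for Alb (5.23), Serpinc1 (3.32), Serpind1 (0.94), Serpina3k (-1.99), Serpina7 (-3.12), Serpinf2 (2.06), Serpina11 (0.78) and Serpina3n (1.18).

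The KO effect in large minus that in small intestine passed for no serpin gene, against 0.15% of all genes (0.0965% higher and 0.0531% lower); 19 of 40 had an unadjusted p under 0.05 in limma. The smallest adjusted p were those of Serpina9 (-2.42 ± 0.30, 0.0582) and Serpinb6b (-2.97 ± 0.39, 0.0662). Serpine2 (-2.34), Serpini1 (-2.39), Serpinf1 (-1.65) and Serpinh1 (-1.44) had adjusted p of 0.1 to 0.105. The count was 7 (1 higher, 6 lower) without KO small intestine replicate 2 and 2 higher without KO large intestine replicate 3. The rises in small intestine of the matrix and plasminogen serpins are therefore not shown to differ from their large intestine values.

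**Figure D4:**
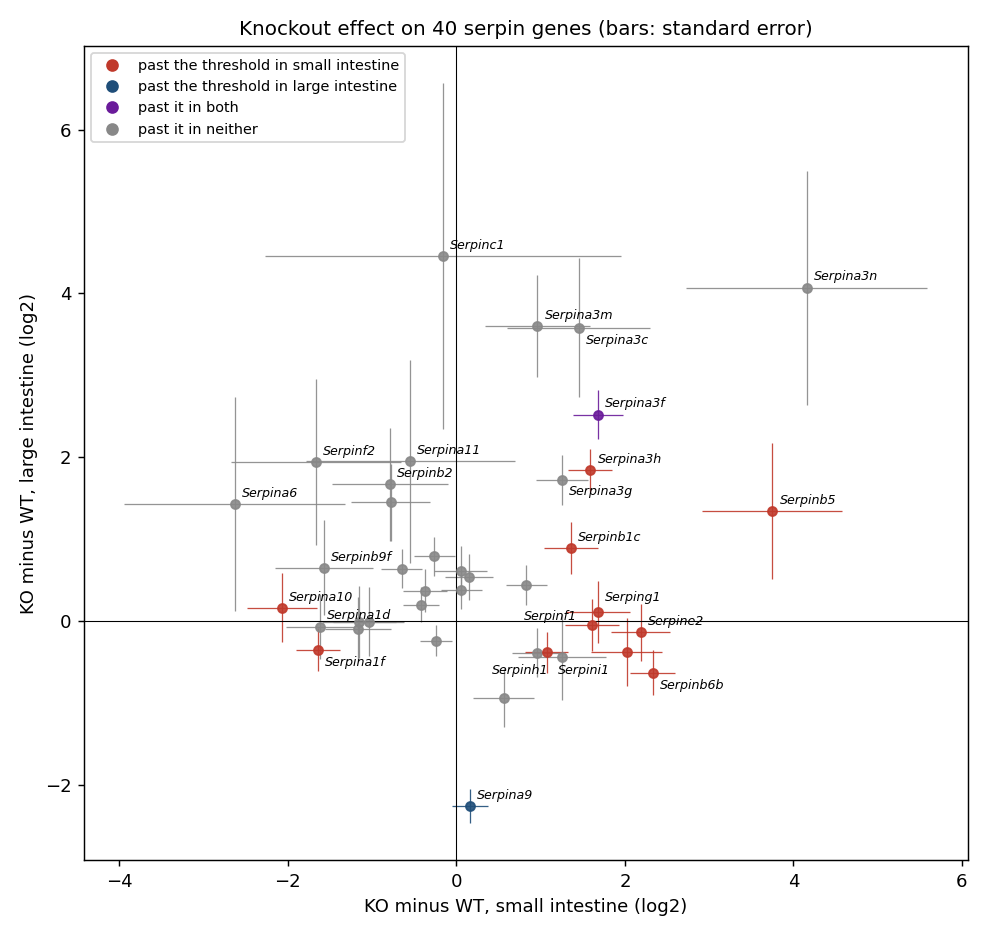
Each point is 1 of 40 tested serpin genes, with the KO minus WT log2 difference in small intestine across and that in large intestine up; bars are standard errors, and values against a group not well above background (Serpina3c, Serpina3m, Serpina6, Serpinb2, Serpinb9e, Serpinb9f and Serpinb11) are fitted values and no measured folds. Serpina3f (1.68 across, 2.52 up) alone passed in both segments, and Serpinc1, Serpina3n, Serpina3m and Serpina3c, with wide bars, did not pass.

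Serpin levels also differed between the segments of WT pups. Between WT large and WT small intestine, 5 serpin genes were higher and 10 lower in the large intestine, 15 of 40 against 19.7% of all genes (9.73% higher, 9.98% lower); the medians were -0.50 and -0.00. Serpinb5 (6.97 ± 0.83, 126.0-fold, adjusted p = 0.00338) and Serpina9 (-0.76 and -0.66 in WT large against -4.40 and -4.62 in WT small intestine, 3.80 ± 0.21, 13.9-fold, adjusted p = 0.000224) were higher in the large intestine, with Serpina10 (2.75 ± 0.42), Serpine2 (1.67 ± 0.35) and Serpinf1 (1.33 ± 0.32). The 4 Serpina1 copies were lower in the large intestine by 1.53 to 1.89 in size (Serpina1e -1.89 ± 0.44, adjusted p = 0.0308), and so were Serpina1f (-1.05) and Serpina3f (-1.34). In clade B, Serpinb6b (-2.0 ± 0.27, adjusted p = 0.00551) and Serpinb8 (-1.04 ± 0.24) were lower. Serpinb2 (PAI-2), an inhibitor of urokinase, and Serpinb9f were well above background on no WT large intestine array and were at least 3.53-fold and 2.45-fold lower there (adjusted p = 0.0157 and 0.034). Both are among the 10 lower genes, but they met the background filter only through WT small intestine, where they were highest. Their p-values are therefore no independent support for the difference. The count was 2 without WT large intestine replicate 2, 8 without WT large replicate 3, 5 without WT small replicate 3 and 7 without WT small replicate 2.

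Of 27 measured protease inhibitors of other families, 8 were higher and 3 lower in WT large intestine, beside 9.73% and 9.98% of all genes. The largest rises were those of Wfdc2 (6.46 ± 0.46) and the leukocyte protease inhibitor Slpi (5.67 ± 0.69). Between genotypes, the metalloprotease inhibitors Timp1 (2.26 ± 0.40), Timp4 (1.54 ± 0.25) and Timp2 (1.45 ± 0.30) rose and Papln fell (-1.20 ± 0.23) in the KO small intestine. In the KO large intestine the cysteine protease inhibitor Stfa3 rose (3.44 ± 0.41, adjusted p = 0.0377) and Wfdc15b fell (-1.71 ± 0.17, adjusted p = 0.0273).

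Of the 19 genes not tested, 10 were well above background on no array: Serpina12, Serpina3a, Serpina4-ps1, Serpinb13, Serpinb3a, Serpinb3d, Serpinb9b, Serpinb9c, Serpinb9d and Serpinb9g. Serpini2, known from the pancreas, was well above background on 2 arrays, KO large intestine replicate 3 (-5.65) and WT large intestine replicate 2 (-5.36), the arrays on which the amylase Amy2a5 was high (2.05 and 2.30, against -9.21 to -3.86 on the others). The remaining untested genes were Serpina3k, Serpina7, Serpind1, Serpina5, Serpinb12, Serpinb3b, Serpinb7 and Serpine3, each above background on 1 to 3 arrays. Of 11 genes with a second tested probe, the probes pointed the same way in 11 for the small intestine, 8 for the large intestine and 10 over both segments. The 3 that disagreed in large intestine were Serpina1a, Serpina1d and Serpina1e, all within 0.24 of 0.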

How the data were processed

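Members, gene lists and the rule for named genes were chosen with earlier results of these data known. The rule names every serpin gene past the threshold in at least 1 comparison, the 3 with the largest change that did not pass in each knockout comparison, and those whose arrays span more than 6 on the log2 scale; other serpins were named after their values were seen, and 1 tested member is counted but not reported here. Spot intensity in the deposited scanner files comes from Feature Extraction 10.7.3.1, which subtracted background without scaling arrays to each other, per the file headers. R 3.3.0 appears in the submitters' processing notes, and any further step is not given in the sources used here. The deposited normalized intensity table (column medians 158.06 to 160.06, scale linear, background step unknown) served as an alternative; its direction follows the arrays (lowest correlation 0.997).

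Levels are log2 of the processed signal, less the 75th percentile of the same array (2642.5 to 3571.77 over 59305 spots, 63.6 to 72.1% of them well above background, none saturated). Outlier-flagged spots were left out (148 to 312 per array), spots of a probe averaged, and a probe was kept if some group had it well above background on both its arrays. The probe with the highest mean stood for a gene. Of 55681 probes, 26056 were named by accession, 3200 by current and 930 by older symbols against 49997 genes of GRCm38.p6, and 3945 kept the file's name. Groups were fitted over all 8 arrays in limma 3.58.1 (R 4.3.3), with 4 residual degrees of freedom (5 in the additive fit), tested on simulated data. Precision is limited by the number of arrays; within a segment the standard error had a median of 0.276. Of 59 genes, 48 have an entry in the RefSeq promoter table. Alternatives were normexp (offset 50), quantile scaling, the deposited table, other background filters, flags ignored, each probe separately, a trended prior, replicate and pup blocks, a 2-fold threshold, a fit of the compared groups alone, and leaving out each array.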

Additional observations from a re-analysis of the deposited data

Results flagged for a closer look

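Serpind1, Serpina3k and Serpina7, all untested, carried signal on single arrays, above the WT level of the same segment. On KO large intestine replicate 2, Serpind1 read 0.94, Serpina3k -1.99 and Serpina7 -3.12 (log2 over the array's 75th percentile), each well above background there; the WT large intestine arrays read -8.15 and -7.65, -9.46 and -7.99, and -7.66 and -7.18, none of them well above background. That array also held the liver transcript Alb at 5.23. Serpind1 was well above background on KO small intestine replicate 2 as well, at -6.08, against -6.64 and -7.11 in WT small intestine, 1 of which was also well above background.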

How the results depend on the processing

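Named serpin genes were followed only in comparisons they passed, or in knockout comparisons where theirs was among the largest changes that did not pass. For these fold changes 790 alternative values were compared. Of these values, 598 kept their side of the threshold and direction, 188 no longer passed, 4 newly passed and none changed direction. Other fold changes of the named genes were not followed, so their direction under the alternatives is not covered. The count in the small intestine (12) was 4 with no filter on background, 7 with the replicate block and 0 with the compared groups alone (22 at an unadjusted p under 0.05), and 0 to 11 with 1 array left out; over the other alternatives it was 8 to 15, the 8 with each probe separately. In the large intestine (2) it was 1 with no filter, 1 with each probe separately, 0 with the replicate block and 0 to 4 with 1 array left out. Over both segments (2) it was 6 with the pup block and 0 to 2 with 1 array left out. For the difference between segments (0) it was 2 with normexp, 2 with the deposited table, 1 with quantile scaling, 1 with the trended prior and 0 to 7 with 1 array left out. For WT large against small intestine (15) it was 9 with no filter and 2 to 16 with 1 array left out. The share of all genes called moved too: in the small intestine it was 1.62% with no filter, 0.0868% with the compared groups alone and 13.3% with the deposited table. The cause of these shifts was not tested.

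Replicate numbers do not pair the samples by the labels, and deviations of same-numbered arrays correlated at 0.018 to 0.262; with the replicate block the counts were 7, 0, 2, 0 and 12, and Serpina3n passed in the small intestine (4.16, adjusted p = 0.0463). The median of all genes in the small intestine, -0.11, was -0.06 with quantile scaling. Signal near background limits Serpina3c, Serpina3m, Serpina6, Serpinb2 and Serpinb9f. Of these, Serpina3m, Serpina6, Serpinb2 and Serpinb9f met the background filter only through the group where they were highest.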
